A study of Danio rerio with 8 samples.

Results

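Histone genes were examined in kdrl-positive cells of zebrafish embryos, in 4 RNA-seq libraries from sf3b1 mutants and 4 from siblings, all at 28 hours post fertilization. The genes were taken from the deposited count table by symbol, as those whose name begins as histone names do (hist, h1f, h1-, h2a, h2b, h3f, h3- or h4), without regard to case. This gave 31 of the 31901 genes in the table. Of these, 18 were counted as replication-dependent histone genes and 12 as variant histone genes, from their symbols. The symbol of hist2h2l does not tell its family, so that gene stands apart. Of the 31, 29 had enough counts to be tested.

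Both groups were isolated as kdrl-positive cells, kdrl being a VEGF receptor gene of vessel endothelium. The mutants carry a mutation in sf3b1, whose product lets the U2 snRNP bind branch points in introns. The allele, the genotype of the siblings, the number of embryos in a library and the clutches they came from are not given in the labels. The p-values therefore reflect the spread among these libraries alone, and that spread may be technical. Total RNA was sequenced after ribosomal RNA had been removed, and the labels name no poly(A) selection. The comparison made is that of mutant with sibling transcript levels.

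Nucleosomes are built from the core histones H2A, H2B, H3 and H4, and the linker histone H1 binds the DNA between them. Most of the supply is made in S phase from replication-dependent genes, which lie in clusters, mostly lack introns, and give mRNAs that end in a stem-loop in place of a poly(A) tail. Variant histones such as H3.3, H2A.Z and H2AX are encoded by separate genes, many of them with introns and poly(A) tails, and are used outside S phase as well.

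Library totals ran from 10035886 to 13277963 counts. SF3B1 (ENSDARG00000056138), the gene that is mutated, stood at 151.3, 149.6, 187.9 and 162.3 CPM in mutant replicates 1 to 4 and at 313.2, 211.5, 310.6 and 353.9 CPM in sibling replicates 1 to 4, where CPM is the count scaled to a common library size after TMM normalization. Its log2 fold change of mutant over sibling was -0.87 ± 0.166 (SE, edgeR adjusted p = 0.00168). On the second principal component, which held 22.6% of the variance, mutant replicate 4 and sibling replicate 2 lay away from the other libraries. All 16 endothelial marker identifiers found in the table were counted in both groups. Of these 3 were higher and 2 lower in the mutants, and 11 did not pass, with a summed level of 3118 to 6080 CPM in mutants and 3080 to 4977 CPM in siblings. Among all genes tested, 9.92% were higher and 11.4% lower.

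Markers of other cell types differed between the groups. Of 17 erythroid markers tested, 14 were lower in the mutants, with a summed level over all 21 identifiers of 5450.3 to 7243 CPM in mutants and 12127 to 24052 CPM in siblings. Of 18 leukocyte markers tested, 13 were lower, with a summed level over 26 identifiers of 201.3 to 538.5 CPM against 1570.3 to 1901 CPM. Of 15 neural markers tested, 9 were lower, with a summed level over 17 identifiers of 448.7 to 483.1 CPM against 1052 to 1594 CPM. For comparison, 11.4% of all genes tested were lower in the mutants and 9.92% higher. Of 11 muscle markers tested, 2 were higher, and the summed level over 12 identifiers was 117.1 to 469 CPM in mutants and 224.1 to 318.1 CPM in siblings. The markers at 0 in all mutant libraries were 1 erythroid identifier of HBE1 and 1 leukocyte identifier of MFAP4, both at 0 in siblings too, and a further MFAP4 identifier, marco and MYF5. Red blood cells of fish keep their nucleus and arise, like vessel cells, from early mesoderm. The part of these cells in the histone results was not tested.

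Replication-dependent histone transcripts found by symbol were lower in the mutants in every histone family. Of the families, H2B and H4 rest on 1 tested gene each, and H3 on 2. Of 17 genes tested, 16 fell, none rose and 1 did not pass (edgeR quasi-likelihood test, p adjusted by Benjamini-Hochberg over 18289 genes, threshold 0.05). Each of the 16 fell by at least 2-fold, while 7.03% of all genes tested were called lower by that much. In those 16 genes every mutant library also lay below every sibling library, which was so for 14.1% of all genes tested. Near-identical copies may share reads, so the 16 calls may not be independent of each other. The median fold of mutant over sibling was 0.322 over the 17 genes, while the median log2 fold change over all genes tested was -0.0004. In bulk RNA, fewer cells of a type and less RNA per cell cannot be told apart.

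Variant histone genes were divided. Of 11 tested, 5 fell, none rose and 6 did not pass, with a median fold of 0.768. Among those that fell were the linker histone gene H1-10 and the 3 genes with an h2ax symbol, while the 4 H3.3 genes and both H2A.Z genes were among those that did not pass. Over all 29 tested histone genes 21 fell, against 11.4% of all genes tested. None rose, against 9.92% of all genes tested, and none was higher at an unadjusted p under 0.05 or with DESeq2, which also called 21 lower. The symbols set these groups, and no test of the difference between the groups of genes was made.

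**Figure D1:**
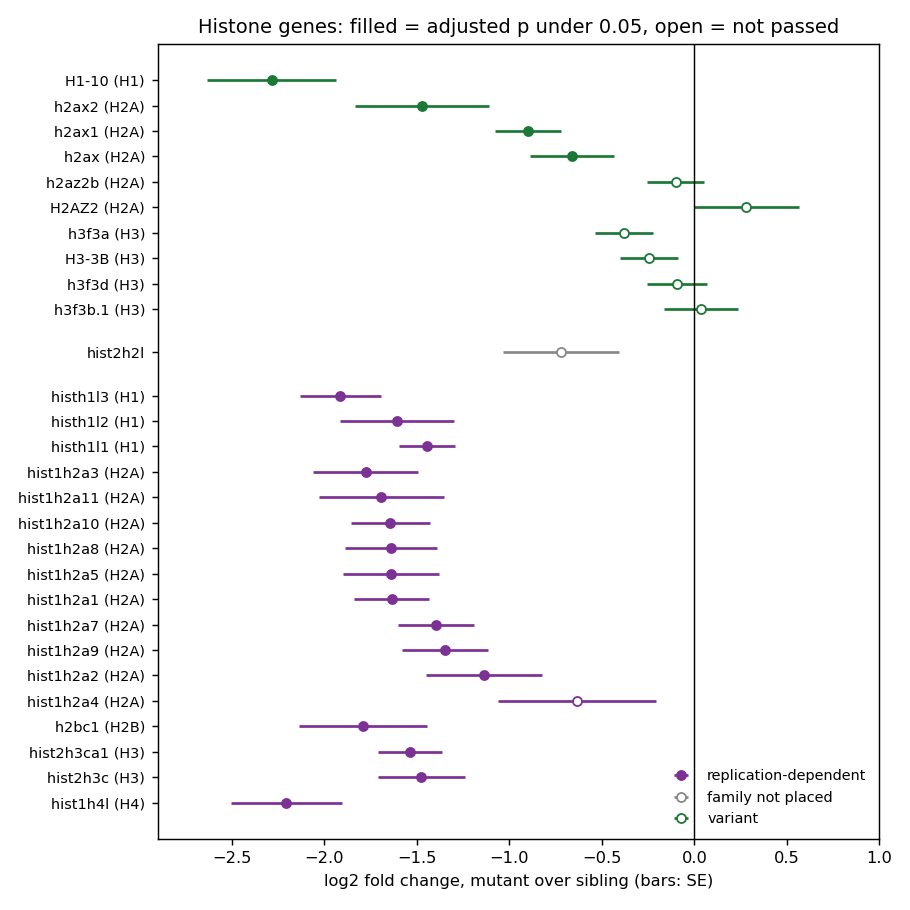
Log2 fold change of mutant over sibling for 28 tested histone genes, with its standard error, coloured by group; filled points passed an adjusted p of 0.05. The replication-dependent genes lie between -2.20 and -0.63, and the H3.3 genes between -0.38 and 0.04.

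The linker histone genes of the replication-dependent group fell together. histh1l1 (ENSDARG00000035519) stood at 367.9, 361.1, 461.0 and 447.5 CPM in mutant replicates 1 to 4 and at 1008, 1377, 934.3 and 1144 CPM in sibling replicates 1 to 4. Every mutant library lay far below every sibling library. The means were 409.4 ± 52.2 and 1116 ± 195 CPM (SD, n = 4 each), and the log2 fold change was -1.45 ± 0.152 (edgeR adjusted p = 1.68e-05). histh1l2 (ENSDARG00000105350) stood at 53.15, 43.16, 37.39 and 41.51 CPM in mutants and at 119.6, 246.6, 78.14 and 90.13 CPM in siblings. Its siblings were spread widely, with replicate 2 well above the rest, and its log2 fold change of -1.61 ± 0.309 became -1.15 without that library and still passed. histh1l3 (ENSDARG00000115766) stood at 23.06, 21.66, 27.13 and 26.47 CPM in mutants and at 98.24, 129.2, 66.64 and 76.56 CPM in siblings. Its mutant libraries lay close together, and it had the steepest fall of the 3 genes, with a log2 fold change of -1.91 ± 0.218.

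The replication-dependent H2A genes are the most numerous among those found by symbol, and 9 of 10 fell. H2A pairs with H2B in the nucleosome. hist1h2a7 (ENSDARG00000099123) stood at 79.40, 70.74, 49.19 and 57.53 CPM in mutants and at 189.6, 218.3, 124.6 and 144.0 CPM in siblings, a log2 fold change of -1.40 ± 0.205. hist1h2a10 (ENSDARG00000112840) stood at 45.33, 26.30, 38.83 and 45.37 CPM in mutants and at 108.7, 163.2, 113.9 and 101.5 CPM in siblings, a log2 fold change of -1.64 ± 0.214. In both genes sibling replicate 2 was the highest library of all, and no mutant library reached a sibling one. hist1h2a11 (ENSDARG00000088686), which RefSeq also lists under the synonyms h2ax3 and h2afx3, stood at 36.19, 37.25, 30.01 and 11.18 CPM in mutants and at 92.24, 138.3, 65.09 and 74.95 CPM in siblings. Mutant replicate 4 was the lowest there, and the log2 fold change was -1.69 ± 0.339. hist1h2a1 (ENSDARG00000109458) stood at 23.68, 27.10, 29.15 and 33.70 CPM in mutants and at 90.23, 113.8, 83.85 and 65.15 CPM in siblings, and it had the smallest p of the family (log2 fold change -1.64 ± 0.203, edgeR adjusted p = 6.21e-05).

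Of the other 6 H2A genes, hist1h2a3 (ENSDARG00000070280, -1.78 ± 0.283), hist1h2a8 (ENSDARG00000105444, -1.64 ± 0.248), hist1h2a5 (ENSDARG00000114133, -1.64 ± 0.260) and hist1h2a9 (ENSDARG00000113399, -1.35 ± 0.232) fell with log2 fold changes close to these. hist1h2a2 (ENSDARG00000103015) fell with the smallest change among them, by 1.14 ± 0.313 on the log2 scale, from 17.37 ± 2.47 to 7.892 ± 2.54 CPM, and did not pass without mutant replicate 2 (-1.04) or without sibling replicate 3 (-1.07). hist1h2a4 (ENSDARG00000051736) was the single replication-dependent gene that did not pass in the first place. It stood at 2.79 to 6.88 CPM in mutants and 6.69 to 7.95 CPM in siblings, so that the groups overlapped, with 34 to 99 counts in a library (log2 fold change -0.63 ± 0.428, edgeR adjusted p = 0.347).

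The single tested H2B gene, h2bc1 (ENSDARG00000109370), stood at 125.7, 54.28, 59.83 and 48.49 CPM in mutants and at 285.8, 375.3, 145.9 and 192.1 CPM in siblings. Mutant replicate 1 stood well above the other mutants and came near the lowest sibling, but the groups did not overlap (log2 fold change -1.79 ± 0.344, edgeR adjusted p = 0.00287). Without that library the log2 fold change was -2.20. Both H2B genes by symbol, h2bc1 and H2BK1, were counted as replication-dependent only because no H2B symbol was set as a variant. H2BK1 had 0 counts in all 8 libraries, which allows a level of up to 0.226 to 0.299 CPM of a library's total, taking 3 counts as the limit and covering counting error only.

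Both replication-dependent H3 genes found by symbol fell. H3 and H4 form the centre of the nucleosome. hist2h3ca1 (ENSDARG00000105508) stood at 51.43, 50.12, 44.68 and 35.51 CPM in mutants and at 150.2, 141.7, 121.3 and 115.2 CPM in siblings (log2 fold change -1.54 ± 0.173, edgeR adjusted p = 2.91e-05). hist2h3c (ENSDARG00000094154) stood at 51.35, 40.85, 45.35 and 21.29 CPM in mutants and at 119.4, 124.6, 104.1 and 93.51 CPM in siblings (log2 fold change -1.47 ± 0.235). In both genes the groups were well separated, and mutant replicate 4 was the lowest library. The H4 gene hist1h4l (ENSDARG00000111247) had the steepest fall of the replication-dependent genes. It stood at 7.97, 4.96, 11.70 and 6.82 CPM in mutants and at 44.57, 26.05, 33.44 and 40.73 CPM in siblings, a log2 fold change of -2.20 ± 0.300 (edgeR adjusted p = 0.000131). A further gene, zgc:165555 (ENSDARG00000112954), lies outside the symbol rule, but RefSeq gives it the synonym h4. It stood at 25.40 to 35.75 CPM in mutants and 61.25 to 87.64 CPM in siblings, with a log2 fold change of -1.29 ± 0.188, and it was chosen after the table was seen.

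**Figure D2:**
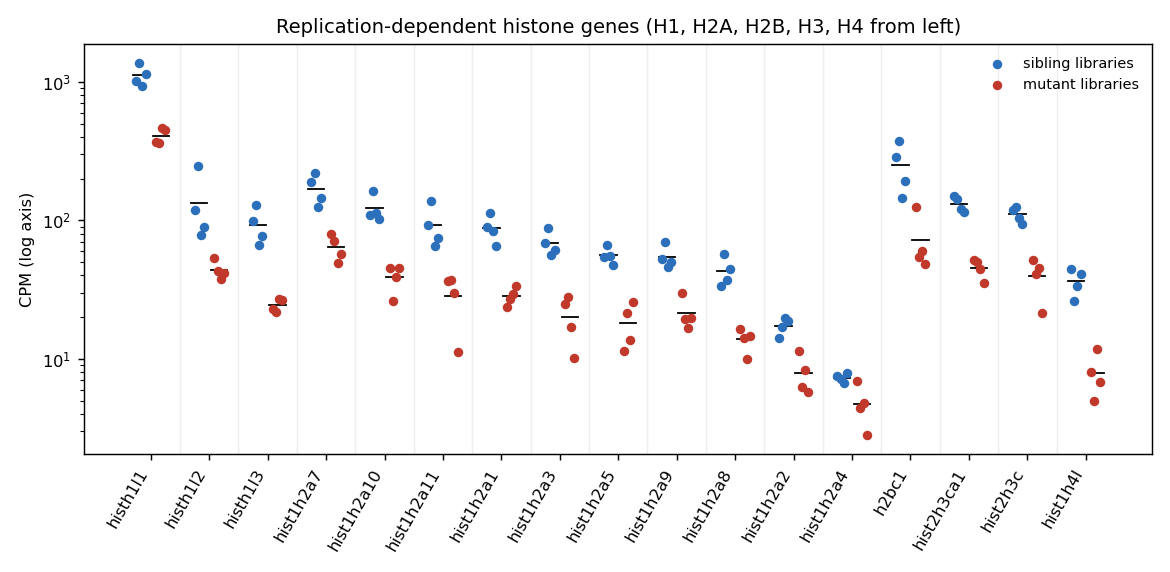
Level of each tested replication-dependent histone gene in each library, in CPM on a log axis, with the mean of each group as a bar, ordered by family. Sibling libraries lie above mutant libraries without overlap in 16 of 17 genes, the exception being hist1h2a4. This was so for 14.1% of all genes tested.

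Histone genes come in near-identical copies, and the sources used here do not state how reads that match several copies were counted, which leaves the level of any 1 copy uncertain. Summing the counts over a family does not depend on how reads were split among its listed members. How reads shared with copies outside the symbol rule were counted still bears on every sum. The 18 replication-dependent genes together stood at 966.1, 830.8, 904.5 and 854.0 CPM in mutants and at 2537, 3360.5, 2092 and 2368 CPM in siblings. The mutant libraries lay within a narrow band, with sibling replicate 2 the highest of the siblings, and the mutant mean was 0.343 of the sibling mean. A large part was histh1l1 alone, with a mean of 409.4 of 888.9 CPM in mutants and 1116 of 2589 CPM in siblings. By family, the mutant mean was 0.356 of the sibling mean for H1, 0.342 for H2A, 0.289 for H2B, 0.351 for H3 and 0.217 for H4, and the groups overlapped in no family. For H2B and for H4 the sum rests on 1 gene with counts, so summing removes none of that uncertainty there. Sibling replicate 2 was the highest sibling library in 13 of the 17 tested genes. It also had the highest sibling sums of erythroid (24052 CPM), leukocyte (1901 CPM) and neural markers (1594 CPM). Its endothelial (3080 CPM) and muscle marker sums (224.1 CPM) were the lowest of the siblings. Any link of these sums to the histone levels was not tested. Without sibling replicate 2 and mutant replicate 4, 16 of the 17 genes still fell.

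Among the variants, the linker histone gene H1-10 (ENSDARG00000054058) fell. It stood at 9.53, 9.11, 6.42 and 3.45 CPM in mutants and at 28.24, 52.86, 24.63 and 33.58 CPM in siblings. Its log2 fold change of -2.28 ± 0.349 was the most negative among the 29 histone genes, and no mutant library came near a sibling one.

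H2AX is the H2A variant that is phosphorylated around DNA breaks, and in mammals its transcript can end either in a stem-loop or in a poly(A) tail. h2ax2 (ENSDARG00000086552) stood at 32.36, 25.02, 17.26 and 8.30 CPM in mutants and at 61.59, 85.02, 46.33 and 37.60 CPM in siblings (log2 fold change -1.47 ± 0.364, edgeR adjusted p = 0.0105). Both groups were spread widely, and the highest mutant lay just under the lowest sibling. h2ax1 (ENSDARG00000068995) stood at 39.62, 39.41, 40.56 and 53.67 CPM in mutants and at 80.82, 73.85, 96.33 and 71.98 CPM in siblings, a fall of less than 2-fold (-0.90 ± 0.178). h2ax (ENSDARG00000029406) stood at 30.48, 44.20, 28.38 and 30.58 CPM in mutants and at 60.29, 66.12, 47.96 and 37.03 CPM in siblings. Here the groups overlapped through mutant replicate 2 and sibling replicate 4, and the call was marginal (-0.66 ± 0.226, edgeR adjusted p = 0.0499). It was lost when any of mutant replicates 1, 3 and 4 or sibling replicates 1, 2 and 3 was left out, and leaving out single libraries gave log2 fold changes of -0.83 to -0.55. It was also lost without both libraries that stood apart, and with other scalings (RLE, upper quartile) or without robust estimation. With these 3 genes counted among the replication-dependent ones, a choice made after the data were seen, 19 of 20 replication-dependent genes fell and 2 of 8 variants did. Of all genes tested, 11.4% were lower. hist1h2a11, which has the synonym h2ax3, was counted as replication-dependent from the start because of its symbol.

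H2A.Z, which marks promoters, and H3.3, which is deposited independently of replication, gave no call in either direction. h2az2b (ENSDARG00000116491) stood at 105.9, 106.0, 79.49 and 95.59 CPM in mutants and at 117.9, 100, 95.43 and 101.8 CPM in siblings (log2 fold change -0.10 ± 0.155, edgeR adjusted p = 0.716). H2AZ2 (ENSDARG00000068820) stood at 19.64 to 39.73 CPM in mutants and 16.95 to 35.05 CPM in siblings (0.28 ± 0.285, edgeR adjusted p = 0.559). In both genes the groups overlapped. h2af1al had 0 to 28 counts in a library and was not tested.

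Of the H3.3 genes, h3f3a (ENSDARG00000020504) stood at 175.5, 161.8, 154.5 and 150.9 CPM in mutants and at 264.9, 167.4, 217.2 and 187.1 CPM in siblings. Only mutant replicate 1 reached into the sibling range (-0.38 ± 0.157, edgeR adjusted p = 0.104), and the gene passed without sibling replicate 2, with -0.49. H3-3B (ENSDARG00000033009) stood at 228.8, 227.7, 234.3 and 211.8 CPM in mutants and at 226.1, 225.5, 350.5 and 266.0 CPM in siblings (-0.24 ± 0.156, edgeR adjusted p = 0.318). h3f3d (ENSDARG00000045248) stood at 242.0, 239.0, 167.7 and 239.2 CPM in mutants and at 271.8, 261.1, 201.3 and 213.3 CPM in siblings (-0.09 ± 0.160, edgeR adjusted p = 0.751). The mutants of H3-3B lay close together at the lower edge of the siblings, whereas those of h3f3d lay among them except replicate 3, which was below every sibling. h3f3b.1 (ENSDARG00000068434) stood at 72.84, 62.67, 57.91 and 47.67 CPM in mutants and at 77.21, 49.04, 60.68 and 48.20 CPM in siblings (0.04 ± 0.201, edgeR adjusted p = 0.929). The signs of h3f3d and h3f3b.1 turned when single libraries were left out. Of the macroH2A genes, which lie outside the symbol rule, MACROH2A2 stood at 106.0 to 154.7 CPM in mutants and 91.50 to 131.2 CPM in siblings (0.23 ± 0.164, edgeR adjusted p = 0.386), and MACROH2A1 had at most 58 counts in a library and did not pass either (-0.57 ± 0.881).

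**Figure D3:**
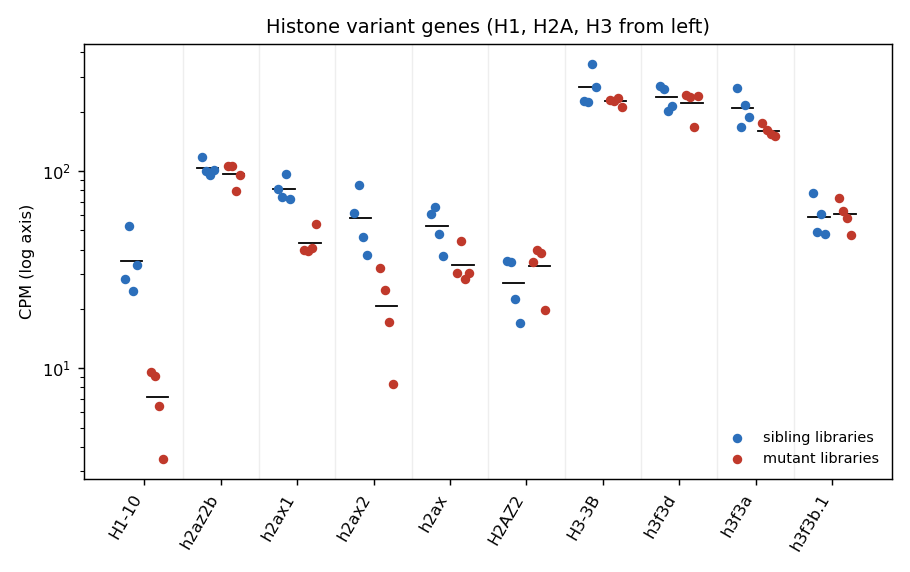
Level of 10 tested histone variant genes in each library, in CPM on a log axis, with the mean of each group as a bar, ordered by family. Mutant and sibling libraries are separate for H1-10, h2ax1 and h2ax2 and overlap for the other 7 genes. Among all genes tested, the groups were separate with mutants lower in 14.1% and with mutants higher in 12.6%.

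hist2h2l (ENSDARG00000068996), whose family the symbol does not give, stood at 7.91 to 19.56 CPM in mutants and 16.23 to 33.20 CPM in siblings and did not pass (-0.72 ± 0.313, edgeR adjusted p = 0.122).

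As a sum, the 12 variant genes stood at 1025, 991.3, 870.2 and 901.6 CPM in mutants and at 1378, 1343, 1295 and 1169 CPM in siblings, with a mutant mean of 0.731 of the sibling mean. By family, the variant H2A sum was at 0.707 of the sibling mean, without overlap, and the H3.3 sum at 0.866, with overlap. Most of the variant sum was H3.3, with a mean of 668.6 of 947.1 CPM in mutants and 771.8 of 1296 CPM in siblings. Replication-dependent counts were 0.942, 0.838, 1.04 and 0.947 times the variant counts in mutant replicates 1 to 4, and 1.84, 2.50, 1.62 and 2.03 times in sibling replicates 1 to 4. This ratio needs no scaling between libraries, and it was lower in every mutant library than in any sibling library. For H3 alone the ratio of replication-dependent to H3.3 counts was 0.0874 to 0.147 in mutants and 0.272 to 0.379 in siblings. For H2A the ratio was 1.0 to 1.17 in mutants and 1.97 to 2.61 in siblings. The ratios are of counts, not of molecules, since gene length was not taken into account. Ratios and variant sums by family are given for H2A and H3 only, and they do not stand for H1. There the variant gene H1-10 had a log2 fold change of -2.28, and the 3 replication-dependent genes had -1.91 to -1.45.

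**Figure D4:**
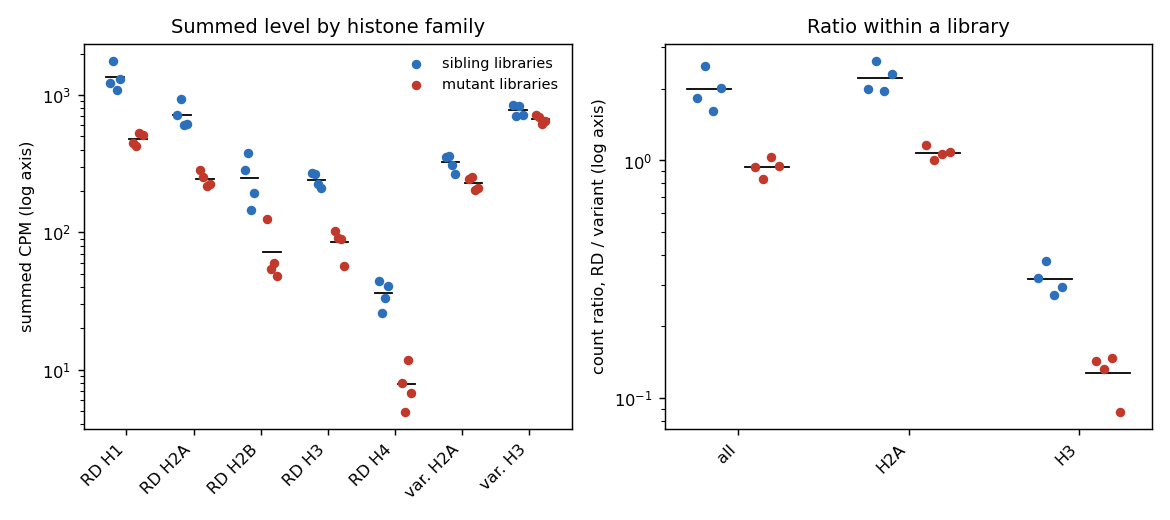
Left, summed CPM of each histone family in each library on a log axis, for replication-dependent (RD) and variant H2A and H3 (var.) genes; right, ratio of replication-dependent to variant counts within each library on a log axis; bars are group means. Groups overlap on the left only for variant H3, and on the right the mutants are lower for all genes together and for H2A and H3, the only families whose ratio is drawn.

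Position in the genome was read only as gene order, from RefSeq's GRCz12tu assembly, which is not the build of the counts. By symbol, 23 of the 31 genes were found there. Taking genes with at most 20 others between them as neighbours, 2 stretches held 5 of the 23 genes each. Up to 17 other genes lie between neighbours there, and histone genes under other names were not looked for among them. One stretch holds hist1h2a11, hist1h2a7, hist2h3ca1, h2ax2 and hist1h2a2, and the other hist2h3c, hist1h4l, hist1h2a10, histh1l3 and hist1h2a5. All 10 fell, and 9 of them are replication-dependent, the exception by name being h2ax2. Wherever they lie, 16 of 17 tested replication-dependent genes and 21 of 29 tested histone genes fell, and 11.4% of all genes tested were lower. A link of position with the fall was not tested. Outside these stretches neighbours differed in their calls. The adjacent h2ax1 and hist2h2l had log2 fold changes of -0.90, which passed, and -0.72, which did not. The neighbours hist1h2a3 and hist1h2a4, with 7 genes between them, were at -1.78, which passed, and -0.63, which did not. Of the tested genes with no other of the 23 placed genes near them, histh1l1, h2ax and H1-10 fell and h2az2b, h3f3a and h3f3b.1 did not pass. Whether genes that were not found there lie near them is not known.

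Most genes listed as acting on histone mRNA did not pass, as was so for all genes tested, of which 21.3% passed in either direction. Of 26 tested genes for the transcription and 3' end processing of histone mRNA, 4 rose, 1 fell and 21 did not pass, with a median fold of 1.18, where 9.92% of all genes tested were higher and 11.4% lower. Those that rose were ERI1, an exonuclease that trims the histone stem-loop (29.61 ± 5.15 against 10.32 ± 0.936 CPM, log2 fold change 1.52 ± 0.244), the cleavage factor genes CSTF3 (0.89 ± 0.134) and CSTF1 (1.0 ± 0.250), and MBIP (1.59 ± 0.290). MBIP encodes a subunit of a histone acetyltransferase complex and no processing factor, and CSTF1 and CSTF3 also act on other mRNAs. The single gene that fell was eri2 (-1.10 ± 0.306), of the same exonuclease family as ERI1, and it did not pass without mutant replicate 1 (-1.02) or sibling replicate 2 (-0.86). slbp, which encodes the protein that binds the histone stem-loop, stood at 57.68, 59.07, 50.63 and 35.34 CPM in mutants and at 66.30, 79.10, 37.76 and 30.37 CPM in siblings, with wide overlap (-0.07 ± 0.281, edgeR adjusted p = 0.896). npat, the activator of histone gene transcription, stood at 67.49 ± 12.5 and 50.04 ± 6.74 CPM (0.43 ± 0.187, edgeR adjusted p = 0.120). casp8ap2, a histone locus body gene, stood at 56.92 ± 8.54 and 38.64 ± 7.71 CPM (0.56 ± 0.201, edgeR adjusted p = 0.0615). LSM11 was low, at 1.73 to 12.04 CPM in mutants and 5.06 to 13.45 CPM in siblings, and did not pass (-0.13 ± 0.507). From the same list, slbp2 and both LSM10 identifiers had too few counts to be tested. slbp, slbp2, npat, casp8ap2, LSM10 and LSM11 were named for their role after their values were seen.

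Histone chaperones and other genes acting on new histones numbered 44, of which 11 rose and 8 fell. The other 25 did not pass, and the median fold was 1.04. Of all genes tested, 9.92% were higher and 11.4% lower. Among those that rose were rbb4l, a histone-binding protein gene (1.23 ± 0.154), npm3 of the nucleoplasmin family (1.18 ± 0.221), and the importin genes IPO9 (1.01 ± 0.141) and ipo4 (1.15 ± 0.215), whose products carry histones into the nucleus. chaf1a, the large subunit of the complex that places new H3 and H4 behind the replication fork, fell from 359.1 ± 43.1 to 240.4 ± 33.6 CPM (-0.58 ± 0.146). HIRA, which encodes an H3.3 chaperone, rose from 41.30 ± 6.26 to 60 ± 4.59 CPM (0.54 ± 0.176, edgeR adjusted p = 0.0414), but did not pass when any of mutant replicates 1, 2 and 3 or sibling replicates 1, 3 and 4 was left out, or with no filter on low counts. SSRP1, a subunit of the FACT chaperone, has 2 identifiers, of which the low one (ENSDARG00000016994) fell from 14.95 ± 5.15 to 2.80 ± 1.59 CPM (-2.41 ± 0.478). The other (ENSDARG00000037397) rose from 157.0 ± 41.3 to 258.5 ± 60.7 CPM (0.72 ± 0.212), with overlapping groups, and did not pass when any of mutant replicates 1, 2 and 4 or sibling replicates 3 and 4 was left out. chaf1a, HIRA and SSRP1 were named after their values were seen. The number that rose was 6, 5, 6 and 6 without mutant replicate 1, mutant replicate 2, sibling replicate 3 and sibling replicate 4.

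Most DNA replication genes did not pass, but only 21.3% of all genes tested passed in either direction. Among 60 tested identifiers for S phase, 11 fell and 8 rose, the remaining 41 gave no call, and the median fold was 1.07. These counts are read against 11.4% of all genes tested that were lower and 9.92% that were higher. The thymidine kinase gene TK1, of nucleotide supply, stood at 21.73, 23.34, 29.34 and 25.81 CPM in mutants and at 104.9, 153.6, 73.16 and 86.20 CPM in siblings (-2.06 ± 0.229), and sibling replicate 2 was the highest library for it too. The origin licensing genes ORC1 (1.2 ± 0.172), MCM6 (ENSDARG00000057683, 1.14 ± 0.194) and MCM3 (1.09 ± 0.198) rose, while a further MCM6 identifier (ENSDARG00000033231) did not pass (0.84 ± 0.735). Not all licensing genes rose. MCM7 fell (-0.50 ± 0.136), and MCM2, MCM4, MCM5 and the other ORC genes did not pass, all named after their values were seen. RRM2, a ribonucleotide reductase subunit named after its values were seen, fell at both of its identifiers (-1.09 ± 0.263 for ENSDARG00000078069 and -0.78 ± 0.264 for ENSDARG00000020711), the second of which did not pass under most alternatives. Fewer passed when single libraries were left out. The number that fell was 5, 7 and 7 without mutant replicates 1, 2 and 3 and 4 and 7 without sibling replicates 1 and 2, and the number that rose was 5 without sibling replicate 3 or 4 or mutant replicate 2.

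**Figure D5:**
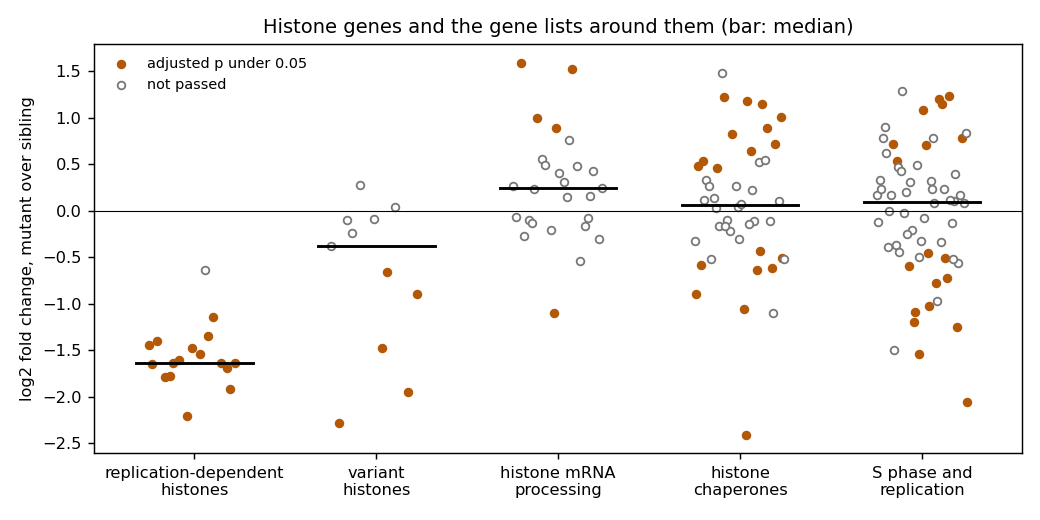
Log2 fold change of mutant over sibling for each tested gene of the replication-dependent and variant histone genes and of 3 gene lists around them, with the median as a bar; filled points passed an adjusted p of 0.05. The median fold is 0.322 for replication-dependent histones and 1.18, 1.04 and 1.07 for the histone mRNA, chaperone and replication lists.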

How the data were processed

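Values are whole-number counts for each Ensembl gene, as deposited, with totals that differ between libraries. STAR 2.4.2a, Cufflinks 2.2.1, Trim Galore, Picard and GRCz10 are listed in the submitters' processing notes. How genes were counted, with which strand setting, and what became of reads with several matches is not given in the sources used here. Ribosomal RNA was removed and libraries were stranded, per the labels' protocols. Symbols came from a table of Ensembl names (29178 of 31901 genes matched). Genes were filtered with filterByExpr (smallest count 10, smallest total 15), which left 18289, and compared with edgeR 4.0.16 in R 4.3.3 (TMM, glmQLFit with robust=TRUE, glmQLFTest, group as the only factor, Benjamini-Hochberg adjustment, threshold 0.05), a script first tested on simulated data. Every adjusted p comes from this fit. The SE is the log2 fold change divided by the square root of F. No pair of replicates agreed within sampling noise (chi-square per degree of freedom 14.7 to 51.1). Variant genes were those set by symbol (H2A.Z, H2AX, h2af, H3.3 and linker variants such as H1-10), and the other placed genes counted as replication-dependent. Libraries are given in full for up to 4 genes of each family with the highest mean CPM and for the 5 smallest p, and from each list the 4 smallest p are named. eri2, slbp, slbp2, npat, casp8ap2, LSM10, LSM11, chaf1a, HIRA, SSRP1, RRM2, zgc:165555 and the macroH2A genes were added after their values were seen. So were MCM2, MCM4, MCM5, MCM7 and the ORC genes other than ORC1. Members and lists were chosen with earlier results of these data known. Alternatives were other scalings, filters and tests (DESeq2 1.42.0), the replicate number as a block, and leaving out libraries. Sums and ratios carry no test. A further variant histone gene is counted in the totals but its values are not reported here.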

Additional observations from a re-analysis of the deposited data

Results flagged for a closer look

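In 5 of 86 groups of 4 libraries checked, 1 library stood far from the rest by Dixon's criterion, and chance gives about 1 in 20. They were mutant replicate 1 for h2bc1 and so for the H2B sum (125.7 CPM in each), mutant replicate 4 for h2ax1 (53.67 CPM), mutant replicate 2 for h2ax (44.20 CPM) and mutant replicate 3 for h3f3d (167.7 CPM). Each was above the other mutants except the last, which was below them.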

How the results depend on the processing

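All counts of histone genes that fell stayed within 1.5 times under 17 alternative fits, and 19 of the 21 genes passed in every one, the exceptions being h2ax and hist1h2a2. Leaving out single libraries gave 19 to 21 histone genes lower, 15 to 16 of them replication-dependent and 4 to 5 variant. Other scalings moved the median log2 fold change of all genes by at most 0.067. With H2AX counted as replication-dependent, 2 variants were lower. On leaving out single libraries, 0 to 1 histone mRNA genes were lower, 5 to 11 chaperone genes were higher, and 4 to 11 S phase genes were lower and 5 to 10 higher, while 7 S phase genes were lower without both libraries that stood apart. Signs turned for h3f3d (-0.16 to 0.020), h3f3b.1 (-0.067 to 0.19) and slbp (-0.27 to 0.16) when single libraries were left out, and for slbp without both libraries that stood apart (0.30) and under the replicate block (0.0025). The cause was not tested. With the replicate number as a block, 21 histone genes were lower, with 2036 of all genes lower and 1746 higher. The numbers did not pair the samples (correlations of same-numbered deviations -0.039 to 0.053), and only replicate 1 matched its own number best. Low counts limit h2af1al, hist1h2a4 and MACROH2A1.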
